A study of Mus musculus with 2 samples.

Results

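The interferon regulatory factors (Irf proteins) are transcription factors that bind interferon-stimulated response elements and control interferon and inflammatory genes. The members described here are 7 genes, Irf1, Irf2, Irf3, Irf4, Irf5, Irf7 and Irf8, which were found on the arrays by gene name and known aliases. They are covered by 10 probes of 41111 probes other than controls, which carry 27570 gene names. Where no RefSeq gene matched, the array's own name was counted as a gene, here and in the shares of all genes below. Irf1, Irf3 and Irf8 have 2 probes each and the other members have 1. Probes were treated separately, and where a gene has 2 they are called its brighter and its dimmer probe by signal alone. The family was selected with these ratios in view, above all that of Irf5, so the ratios below are a description and carry no test.

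Some Irf proteins, such as Irf3 and Irf5, wait in the cell until pattern recognition receptors signal. Toll-like receptors and RNA and DNA sensors act through adaptors such as Myd88 and Mavs and through kinases such as Tbk1, which activate Irf3, Irf5 and Irf7. Interferons then act through Jak kinases and Stat factors, which induce Irf1, Irf7 and Irf8 in many cells. Irf4 and Irf8 are best known from blood cells, and in skeletal muscle tissue much Irf signalling is attributed to resident and infiltrating leukocytes.

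The arrays compare gastrocnemius (GAS) muscle of WT mice and of mice lacking GDE5 in skeletal muscle (*Gde5* skKO). GDE5, encoded by Gpcpd1, hydrolyses glycerophosphocholine to choline and glycerol 3-phosphate. All mice were males of the C57BL/6 background, 15 weeks old and on a normal diet. In *Gde5* skKO mice loxP sites flank exon 11 of both *Gde5* alleles, and Cre is driven by the human α-skeletal actin promoter, so cells in the muscle other than fibres keep the gene. The labels call the controls wild-type, while the methods name *Gde5* flox/flox littermates as controls of other experiments on these mice. The labels name 5 mice of each genotype, but say nothing of pooling, nor whether the RNA of array 2 was that of array 1. Nor do they say whether the mice were fasted or had received glucose. The paper describes transcript comparisons of these genotypes in both states, after a glucose injection and with fasting. Which state each array holds, and whether it is the same on both, is not given. The arrays are therefore 2 hybridizations of unknown independence, and no test across mice was made.

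Each array held RNA of both genotypes in different dyes. On array 1 *Gde5* skKO RNA carried Cy5 and WT RNA carried Cy3, and on array 2 the dyes were swapped. Signals are Agilent processed signals, which are spot intensities after background subtraction and dye normalization. Ratios are log2 of *Gde5* skKO over WT on both arrays, and the error given after a ratio is the deposited one, which covers spot and dye noise within that array. Of the spots, 44.6% to 53.2% were well above background in a channel. Of the 4 probes for *Gde5* itself, 3 were called lower in *Gde5* skKO muscle, with log2 ratios of -2.59 to -3.29 over both arrays, and the other gave -0.05 and -0.47. The 10 skeletal muscle markers, among them Ckm and Acta1, were all well above background, had a median log2 ratio of -0.00, and none was called on the deposited p-values. At an unadjusted p under 0.05 limma's moderated test gave Myh1 and Mb as higher. An unpaired test of the channel values gave Pygm and Mb as higher and Myh4 as lower. No share of all genes is given for these unadjusted tests, here or for the lists below, so nothing is read from their counts. With 2 arrays, the precision of all values is limited.

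The start regions of members are shown because Irf genes are themselves known targets of interferon signalling. RefSeq sequences on GRCm38.p6 were matched by symbol, and all 7 members had an entry, with 9 windows in all that run from 250 bases before to 50 bases after an annotated start. Capitals mark letters that match the binding site of Stat dimers, TTCNNNGAA, or the interferon-stimulated response element (ISRE), GAAANNGAAA, searched on both strands. The windows of Irf1, Irf2 and Irf8 hold matches, and that of Irf5 is shown beside them because Irf5 is the member whose ratio stood out. They lie at chr11:53769764-53770063 (Irf1, plus strand), chr8:46739495-46739794 (Irf2, plus strand), chr6:29526375-29526674 (Irf5, plus strand) and chr8:120736108-120736407 (Irf8, plus strand).
Irf1: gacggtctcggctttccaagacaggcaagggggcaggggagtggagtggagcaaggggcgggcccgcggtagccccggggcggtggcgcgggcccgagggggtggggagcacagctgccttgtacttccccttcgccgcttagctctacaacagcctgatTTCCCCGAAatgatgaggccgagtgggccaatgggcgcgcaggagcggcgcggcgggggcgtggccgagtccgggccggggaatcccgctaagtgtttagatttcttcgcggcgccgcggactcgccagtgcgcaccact
Irf2: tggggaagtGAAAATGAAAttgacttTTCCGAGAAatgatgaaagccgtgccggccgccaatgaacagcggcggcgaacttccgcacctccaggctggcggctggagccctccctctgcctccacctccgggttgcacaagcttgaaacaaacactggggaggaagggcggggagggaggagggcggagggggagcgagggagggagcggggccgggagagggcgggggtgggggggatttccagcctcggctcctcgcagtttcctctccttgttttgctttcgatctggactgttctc
Irf5: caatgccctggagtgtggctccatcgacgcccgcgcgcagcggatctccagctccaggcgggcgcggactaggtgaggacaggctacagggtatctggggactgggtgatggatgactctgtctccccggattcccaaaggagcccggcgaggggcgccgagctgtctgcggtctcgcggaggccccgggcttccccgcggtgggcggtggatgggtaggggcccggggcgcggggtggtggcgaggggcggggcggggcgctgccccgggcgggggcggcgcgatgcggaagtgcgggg
Irf8: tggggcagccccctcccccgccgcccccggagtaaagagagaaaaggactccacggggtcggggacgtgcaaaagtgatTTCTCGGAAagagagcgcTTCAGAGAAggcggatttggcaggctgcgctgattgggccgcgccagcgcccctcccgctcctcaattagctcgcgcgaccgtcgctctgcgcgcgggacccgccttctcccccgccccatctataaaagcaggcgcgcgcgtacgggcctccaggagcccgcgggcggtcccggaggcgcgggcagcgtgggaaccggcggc

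The Stat site letters were present in 3 of the 9 windows, against 8.3% of all 32851 windows of this length. In Irf1 the match, TTCCCCGAA, began at position -90, counted from the start. In Irf8 there were 2 matches, TTCTCGGAA at -171 and TTCAGAGAA at -153. In Irf2 the match, TTCCGAGAA, began at -224. The ISRE letters were present in 1 of the 9 windows, GAAAATGAAA at -241 in Irf2, against 3.44% of all windows, and they did not overlap the Stat site letters there. The Irf5 window held neither, and neither did the windows of Irf3, Irf4, Irf7, and the second starts of Irf1 and Irf8. The Irf5 window is 74.7% G and C. A match is a description of letters and does not show that a factor binds.

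**Figure D1:**
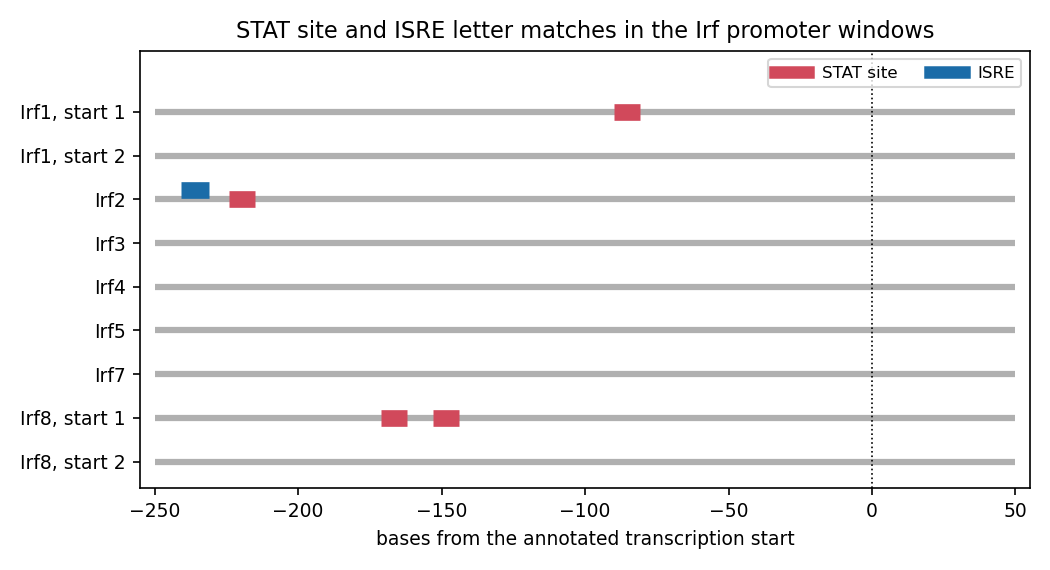
Positions of letter matches in the 9 promoter windows of the 7 Irf genes, with bases from the annotated start on the x axis and 1 grey line per window. Red blocks are Stat site matches and the blue block is the ISRE match; Irf1, Irf2 and Irf8 hold matches in 1 window each, and the Irf5 line is empty.

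Irf5 was the member that differed between the genotypes on both arrays. It was higher in *Gde5* skKO muscle, with a mean log2 ratio of 1.39 (SD 0.36, n = 2 arrays), which is 2.61-fold. The other 6 probes that could be compared had mean log2 ratios from -0.30 to 0.56, and none was called. Irf4 and Irf7 were not well above background in either genotype.

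A probe entered the comparison when, on each array, the signal of at least 1 genotype was well above background, and it was called when the deposited p-value was under 0.05 on both arrays with the same direction. Of the 10 Irf probes 7 entered, from 5 of the 7 genes. Irf5 passed this filter with all 4 of its signals. Of the 7 probes 1 was called higher and 0 lower, where 1.49% of all 19094 probes that entered were called higher and 1.58% lower. On array 1 alone, 2 Irf probes had a p-value under 0.05, Irf5 and the dimmer probe of Irf3, against 13.1% of all probes. On array 2 alone it was Irf5 only, against 14.1%. The median of the 7 mean log2 ratios was 0.09 and that of all probes was 0.02. Since the family was selected on this contrast, nothing is read from the count against these shares.

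Irf1 and Irf2 bind the same elements, Irf1 as an activator that interferon gamma induces and Irf2 mostly as its antagonist. The brighter Irf1 probe (mm8 chr11:53620636-53620695) gave signals of 2260 in *Gde5* skKO and 2078 in WT on array 1, and of 2347 and 2247 on array 2. The genotypes differed by less than the signal error, which was 208 to 235. Its log2 ratios were 0.12 ± 0.20 and 0.06 ± 0.20, with a mean of 0.09 (SD 0.04, n = 2). The dimmer Irf1 probe (chr11:53617367-53617512) gave 15.2 in *Gde5* skKO and 45 in WT on array 1, and 18.7 and 14.9 on array 2. Only the WT channel of array 1 was well above background, so no fold is given.

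Irf2 (chr8:48345949-48346008) gave signals of 285 in *Gde5* skKO and 369 in WT on array 1, and of 298 and 349 on array 2. Both *Gde5* skKO values lay below both WT values. The log2 ratios were -0.37 ± 0.21 and -0.23 ± 0.21, and the mean was -0.30 (SD 0.10, n = 2), or 0.812-fold. Neither array called it.

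Irf3, Irf5 and Irf7 carry signals from sensors of microbial products. Irf3 is present in most cells and is activated by phosphorylation. Its brighter probe (chr7:44870345-44870404) gave 2555 in *Gde5* skKO and 2919 in WT on array 1, and 3038 and 2338 on array 2. The genotypes overlapped, and the direction turned with the dyes: the channel labelled with Cy3 was the higher on both arrays. The log2 ratios were -0.19 ± 0.20 and 0.38 ± 0.21, with a mean of 0.09 (SD 0.40, n = 2). The dimmer Irf3 probe (chr7:44866049-44866108) gave 147 in *Gde5* skKO and 76.5 in WT on array 1, and 110 and 97.2 on array 2. *Gde5* skKO was higher on both arrays, but by log2 ratios of 0.94 ± 0.26 and 0.18 ± 0.29 that lie further apart than their errors. The mean was 0.56 (SD 0.54, n = 2), and the probe was called on array 1 only. The 2 Irf3 probes thus disagreed on array 1, where their ratios had opposite signs.

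Irf5 acts downstream of Toll-like receptors and Myd88 and drives inflammatory cytokine genes, for which it is best known in macrophages. Its probe (chr6:29486911-29486970) gave processed signals of 578 ± 57.9 in *Gde5* skKO and 264 ± 28.1 in WT on array 1, and of 725 ± 73.2 and 232 ± 24.2 on array 2. Both *Gde5* skKO values stood above both WT values, whichever dye carried the RNA. The raw spot intensities before any correction had the same order, 280 and 110 on array 1 and 211 and 116 on array 2. Local background was 35.5 to 37.5 in all channels. Raw intensities also carry a dye difference. The brighter Irf1 probe, with ratios near 0, gave raw values of 945 in *Gde5* skKO and 479 in WT on array 1, and 576 and 798 on array 2. There Cy5 was the higher on both arrays, so the raw order of Irf5 on array 1 is not separate from dye. The log2 ratios were 1.13 ± 0.23, or 2.19-fold, and 1.64 ± 0.26, or 3.12-fold. Of the 19094 probes compared, 17 had a higher mean log2 ratio, and of the 16946 whose 4 signals were all well above background, 5 had. These ranks are values that led to the choice of the family. The Irf5 probe is a single spot on each array, and it was neither saturated nor marked as an outlier.

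Irf7, the regulator that amplifies type I interferon production, gave signals of 21.9 in *Gde5* skKO and 11.1 in WT on array 1 and of 25.2 and 21.3 on array 2 (chr7:141116085-141116435, minus strand). None of the 4 channel values was well above background, so no fold is given.

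Irf4 and Irf8 act in lymphocytes and myeloid cells, where they bind DNA with Ets factors such as Spi1. Irf4 (chr13:30774055-30774114) gave 5.91 in *Gde5* skKO and 5.31 in WT on array 1, and 6.75 and 8.86 on array 2. All 4 values are surrogates that the software puts in place of signals too close to background, so Irf4 has no measured ratio. The brighter Irf8 probe (chr8:123642401-123642460) gave 492 in *Gde5* skKO and 442 in WT on array 1, and 496 and 529 on array 2. The genotypes overlapped, and the log2 ratios were 0.15 ± 0.21 and -0.09 ± 0.21 with a mean of 0.03 (SD 0.17, n = 2). The dimmer Irf8 probe (chr8:123641966-123642025) gave 35.5 and 47.9 on array 1 and 50.3 and 29.8 on array 2, in the same order of genotypes. Its ratios, -0.43 ± 0.43 and 0.76 ± 0.54, had opposite signs, and the WT channel of array 2 was not well above background. Probe positions follow the annotation of the array design, in mm8, and no gene model of that build was used, so exons are not given.

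**Figure D2:**
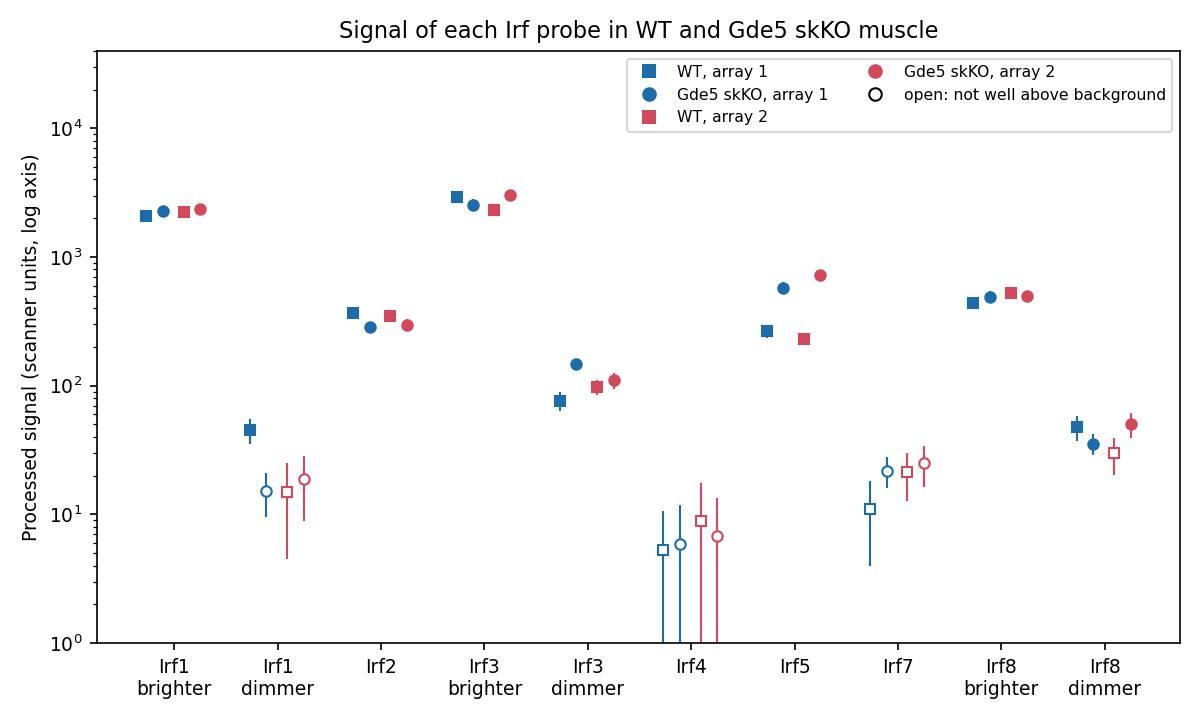
Processed signal (scanner units, log axis) of each of the 10 Irf probes, with squares for WT, circles for *Gde5* skKO, blue for array 1 and red for array 2. Bars are deposited signal errors, those of Irf4 run past the foot of the axis, and open symbols were not well above background; Irf5 is the probe whose circles lie well above its squares on both arrays, at 578 and 725 against 264 and 232.

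Over the 6 probes other than Irf5, 2 were higher on both arrays, 1 was lower on both and 3 had opposite directions. The plot of ratios shows the 7 probes side by side, and the plot of array 1 against array 2 shows where they lie among all probes.

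**Figure D3:**
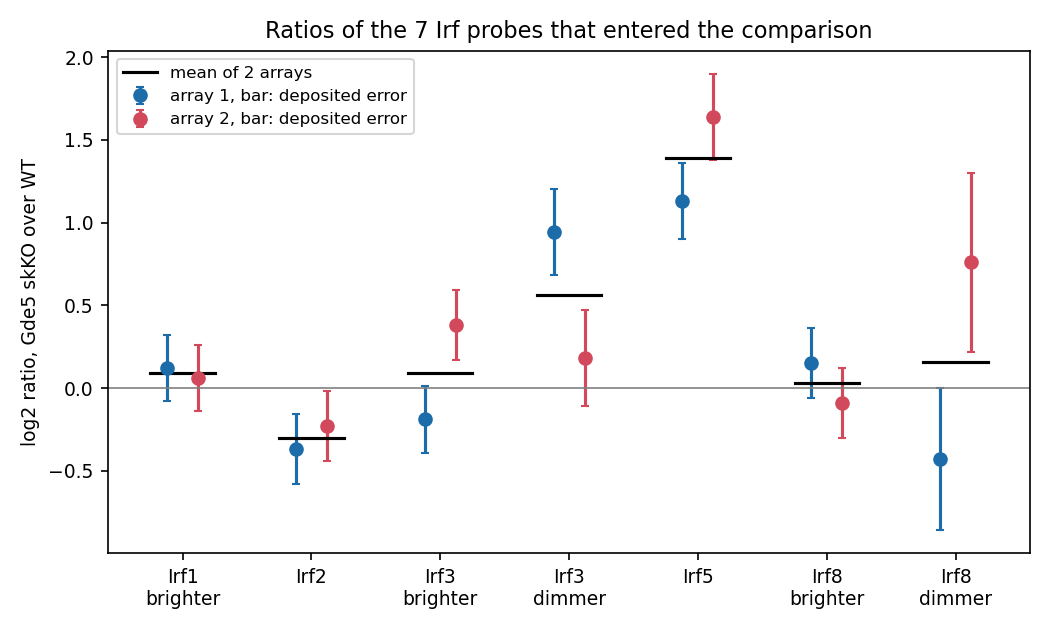
Log2 ratio of *Gde5* skKO over WT (y axis) for the 7 Irf probes that entered the comparison, with array 1 in blue, array 2 in red, bars for the deposited error of each ratio and a black line for the mean of both arrays. Irf5 at 1.13 and 1.64 lies above 0 by more than its errors on both arrays, while the other probes reach or come close to 0 on at least 1 array.

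**Figure D4:**
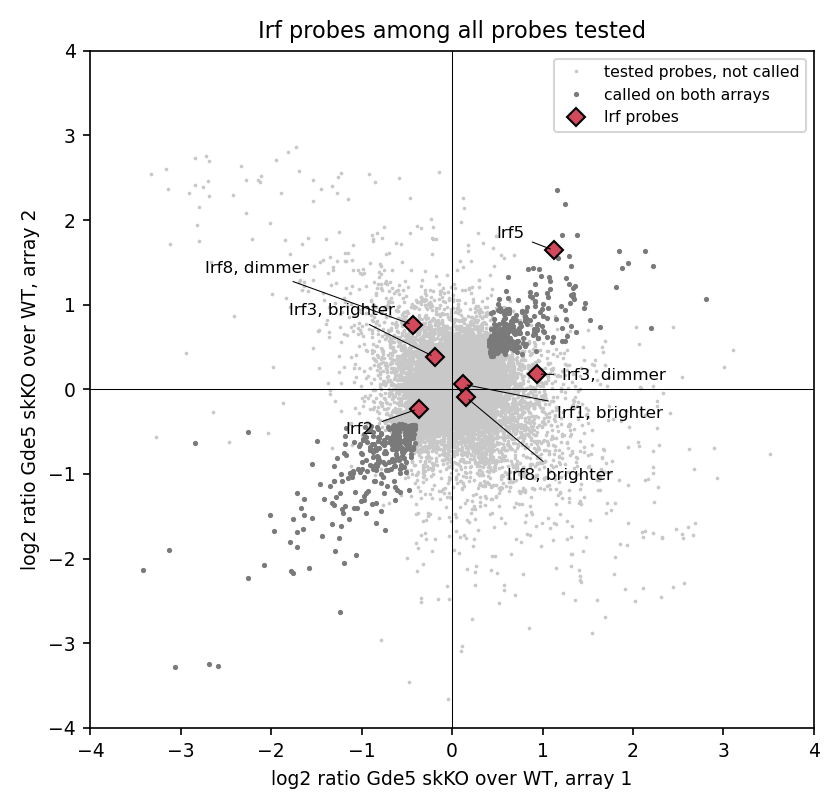
Log2 ratio on array 1 (x axis) against log2 ratio on array 2 (y axis) for all 19094 probes that entered, in light grey, with called probes in dark grey and the 7 Irf probes as red diamonds. Irf5 lies at 1.13 and 1.64 among the probes called higher, and the other Irf probes lie in or near the light grey cloud.

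The genes whose ratios on both arrays were nearest to those of Irf5 were Gsto2 (1.17 and 1.55), Cstad (1.30 and 1.58), Tnfrsf12a (0.96 and 1.43), Atoh7 (1.07 and 1.33) and Lrp11 (0.98 and 1.34). Likeness was the distance in the plane of both ratios, over 2 arrays and 12324 genes, and it ran from 0.10 for Gsto2 to 0.34 for Lrp11. Gsto2 encodes a glutathione transferase, and Tnfrsf12a the receptor of the cytokine Tweak. With 2 arrays, likeness means only a similar size of ratio.

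Genes that act before and after Irf proteins were listed as well, and not all of them could be compared. Of 95 pathway genes listed, 93 were on the array and 65 entered, each by its brightest probe. None was called higher or lower by the deposited p-value on both arrays, where 1.58% of all 13598 genes were called higher and 1.73% lower. With shares this small, nothing is read from the lack of calls among 65 genes. At an unadjusted p under 0.05, limma's test gave 1 gene higher (Irf2bpl) and 0 lower, and the unpaired test gave 3 higher (Tlr2, Atf3 and Ifi35) and 1 lower (Bst2). By either tool 0 passed Benjamini-Hochberg adjustment. Of the 65 genes 24 were higher on both arrays, 15 were lower on both and 26 had opposite directions. No share of all genes is given for directions without a call, here or for the markers below. Nothing is therefore read from the counts of directions.

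Among the sensors 6 of 11 entered, with a median log2 ratio of 0.06. Tlr9, a receptor for microbial DNA that signals to Irf5 and Irf7, had log2 ratios of 0.01 ± 0.21 and -0.26 ± 0.21. Among the adaptors and kinases 13 of 16 entered, with a median of 0.04. Myd88, the adaptor that binds Irf5, gave 0.00 ± 0.21 and 0.15 ± 0.21, and Irak1, the kinase after it, gave 0.41 ± 0.21 and 0.20 ± 0.21. Traf6, a ubiquitin ligase of the same complex, gave -0.46 ± 0.22 and -0.12 ± 0.21. None of these was called.

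Of 8 interferon genes only Ifna1 entered, with log2 ratios of 0.49 ± 0.28 and -0.39 ± 0.35 that had opposite signs. Of the others 6 were on the array and did not enter, Ifnb1 and Ifng among them. All 10 receptors, Jak kinases and Stats entered, with a median of 0.08. Of 16 partners and regulators of Irf proteins 11 entered, with a median of 0.08.

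Of 34 interferon-stimulated targets 24 entered, and their median log2 ratio was 0.02, against 0.01 for all genes. Ifit1, Ifit2, Mx1, Mx2, Oas1a, Oas3 and Ifi44 were among those on the array that did not enter, so they gave no value. Isg15, a ubiquitin-like protein, gave -0.47 ± 0.28 and -0.03 ± 0.28, and Rsad2, an antiviral enzyme, gave 0.21 ± 0.22 and 0.50 ± 0.24. Cxcl10, a chemokine, is the point far to the right in the plot of the lists, with signals of 117 in *Gde5* skKO and 14.6 in WT on array 1 and of 77.1 and 64.4 on array 2. Not all of these signals were well above background, so no fold is given.

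**Figure D5:**
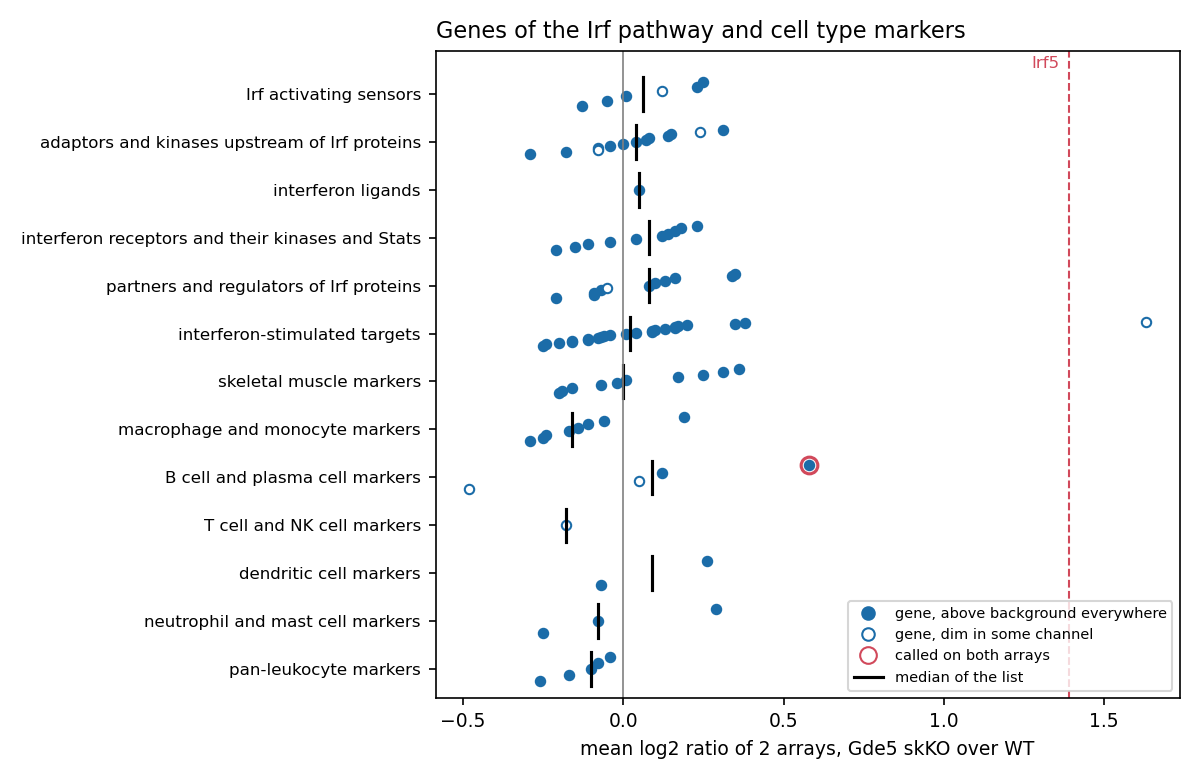
Mean log2 ratio of both arrays, *Gde5* skKO over WT (x axis), for each gene of the pathway and marker lists (rows), with open circles for genes that were dim in some channel and black lines for list medians. Medians lie between -0.18 and 0.09, the dashed red line marks Irf5 at 1.39, and the red ring marks Blnk, which was called.

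GAS muscle holds several kinds of cells, and in such bulk tissue fewer cells of a type and less RNA per cell cannot be told apart. Leukocyte markers were examined because leukocytes express most Irf genes. Of 48 markers 47 were on the array and 23 entered. Of these 1 was called higher, Blnk, and 0 lower, where 1.58% and 1.73% of all genes were called, with 5 higher on both arrays, 10 lower on both and 8 opposite. At an unadjusted p under 0.05, limma's test gave 1 higher (Blnk) and 1 lower (Lyz2). The unpaired test gave 0 higher and 2 lower (C1qc and Coro1a), and none passed adjustment by either test. The summed signal of the 23 markers was 12435 in *Gde5* skKO and 13098 in WT on array 1, and 11300 and 13009 on array 2. Lyz2, the brightest marker, carried most of this net difference. Without Lyz2 the sums were 5462 and 5481 on array 1 and 5486 and 5626 on array 2. These sums still include Blnk, which was higher in *Gde5* skKO, at 1215 and 833 on array 1 and 964 and 629 on array 2. The near-equal sums therefore do not mean that the other markers were level. This sum without Lyz2 was chosen after the values were seen.

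The macrophage and monocyte markers stand for the cells in which Irf5 is best known. Of 12 listed 8 entered, none was called, and their median log2 ratio was -0.16. Of the 8, 5 were lower on both arrays and 1 was higher on both, with no share of all genes to set beside these counts. Adgre1 (F4/80) gave -0.17 ± 0.21 and -0.33 ± 0.22, and Csf1r, the receptor for the macrophage growth factor, gave 0.01 ± 0.21 and -0.23 ± 0.21. Cd68, Itgam, Fcgr1 and Mertk did not enter because their signals were not well above background. The summed signal of the list was 9253 in *Gde5* skKO and 10187 in WT on array 1, and 8276 and 10195 on array 2. Without Lyz2 the sums were 2280 and 2572 on array 1, and 2463 and 2813 on array 2.

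Blnk, an adaptor of B cell receptor signalling, gave 1215 in *Gde5* skKO and 833 in WT on array 1, and 964 and 629 on array 2. Both *Gde5* skKO values stood above both WT values, and the log2 ratios were 0.54 ± 0.21 and 0.61 ± 0.22, with a mean of 0.58 (SD 0.05, n = 2). Blnk was no longer called by limma's test after Benjamini-Hochberg adjustment, nor by the unpaired test. No other B cell marker was called. Ms4a1, Cd79a and Pax5 were not well above background. Of 9 markers of T and NK cells 1 entered, Cd3e, and of 7 dendritic cell markers 2 entered. Of 5 pan-leukocyte markers that entered the median was -0.10, and Ptprc (CD45) had ratios of opposite sign. The part of leukocyte content in the Irf5 ratio was not tested.

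Genes beside each member on the chromosome were compared as well, with 2 protein-coding genes on either side in RefSeq order. Of these 28 genes 18 entered, and by the deposited p-values 1 was called higher and 0 lower, where 1.58% and 1.73% of all genes were called. The called gene was Tspan33, a tetraspanin that lies second after Irf5, with log2 ratios of 0.72 and 0.52. Between them lies Tnpo3, a nuclear import receptor, with -0.26 and 0.07, and on the other side of Irf5 Kcp gave -0.00 and -0.14. No neighbour of the other members was called.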

How the data were processed

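Members and gene lists were chosen with earlier results of these data known. Samples were grouped by the genotype and dye of each channel in the labels. The authors hybridized GAS muscle RNA to Agilent arrays and read the scans with Agilent software, Feature Extraction 9.5 (9.5.3.1 in the file header). For each spot the deposited files hold the Cy5 over Cy3 ratio as log10, with its error, after background subtraction and dye normalization. They also give a deposited p-value from the software's error model, which speaks for the spots of 1 hybridization and not for mice, and the deposited intensity of each channel and its local background. The same log10 ratios, with fewer digits, are in the deposited series table.

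Ratios were put on the log2 scale, with *Gde5* skKO over WT as the direction on both arrays. Control spots, spots marked as outliers (164 and 200 of 43379) and spots beside debris (local background over 100; 14 and 0) were left out. Saturated spots were kept. Each list gene was represented by its brightest probe. All Irf probes were named, and of the list genes those called or those a result turns on, with the 5 genes nearest to Irf5. Names came from RefSeq tables, or from the array where no RefSeq gene matched. Neighbours were added after the values were seen. Alternatives were limma 3.58.1 (R 4.3.3) with loess after normexp, offset 50, or after no background correction, and the series table. Other thresholds and filters, each array alone, the moderated test of limma and the methods' t-test were also used. The methods name that t-test for comparisons of 2 groups and give no test for the arrays. Here it was run unpaired on the channel values, so it ignores the pairing of genotypes within an array. Other steps used scipy 1.17.1, pandas 2.3.3, numpy 2.4.6 and, for plots, matplotlib 3.10.9 under Python 3.11.15. The call rule was also run on simulated ratios, with noise drawn from the same deposited errors that gave their p-values. That run checks the working of the rule and does not bear on the spread between mice. Both arrays lie on 1 slide and 1 scan, so neither could be used as a block.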

Additional observations from a re-analysis of the deposited data

How the results depend on the processing

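The mean log2 ratio of Irf5 was 1.39 and stayed positive throughout, at 0.90 with normexp and loess, 0.96 with loess and no background correction, and 1.13 to 1.64 with 1 array left out; the cause of the smaller ratios was not tested. Since the family was selected on this contrast, the tests of Irf probes are listed as settings and support nothing. Irf5 remained the probe called higher under every alternative except the methods' t-test with Benjamini-Hochberg adjustment, which called 0. The same t-test unadjusted called 1 Irf probe lower, Irf2. With 1 array left out 1 to 2 Irf probes were called higher, the other being the dimmer Irf3 probe when array 2 was left out.

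For the pathway lists, leaving out 1 array gave 2 to 4 genes higher and 0 to 3 lower, in place of 0 and 0. Of all probes that entered, 13.1% had a deposited p-value under 0.05 on array 1 and 14.1% on array 2, in either direction. No share of all genes is given for the unadjusted tests below, so nothing is read from their counts. Unadjusted, limma's test gave 1 higher, and the t-test 3 higher and 1 lower. For the leukocyte markers, leaving out 1 array gave 2 higher with either array and 0 to 1 lower. Unadjusted, limma's test gave 1 higher and 1 lower, and the t-test 0 higher and 2 lower. After adjustment both gave 0 higher, in place of 1. These tests of the lists were added after the data were seen. Of the values of the main comparisons under alternatives 19 moved and 44 did not. They cover the Irf5 ratio, which kept its sign, and counts of calls. Leukocyte marker counts turned from 1 higher and 0 lower to 0 and 2 with the unadjusted t-test. Ratios of the other Irf probes were not among them. The brighter Irf3 probe changed sign, from 0.09 to -0.04 with normexp and loess or with loess and no background correction. With array 2 left out it was -0.19. The brighter Irf8 probe changed from 0.03 to -0.01 with normexp and loess, and to -0.09 with array 1 left out. The dimmer Irf8 probe changed from 0.16 to -0.00 with normexp and loess, and to -0.43 with array 2 left out. Irf2, the brighter Irf1 probe and the dimmer Irf3 probe kept their sign. Each ratio already pairs the genotypes within an array, and slide could not be a block because there is 1 slide. Signals near background, those of Irf4, Irf7 and the dimmer probes of Irf1 and Irf8, allow no statement about the genotypes.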
